A study of Mus musculus with 9 samples.

Results

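The transcripts of 31 enzymes and regulators of the tricarboxylic acid (TCA) cycle, the pyruvate dehydrogenase (PDH) complex and the malate-aspartate shuttle were followed in 9 adult mouse hearts. The members were taken by gene symbol from a table of read counts with 23457 rows, and all 31 symbols were found there. In this set, 30 had enough reads to be tested and Pdk3 did not. The hearts came from 5 wild-type mice (WT) and 4 mice labelled as germline Parkin knockouts (KO), all adult and on a C57BL/6J background. The labels name no allele for the knockout, and every direction below rests on the labels. Each library was made from polyadenylated RNA of 1 heart. The tissue label reads whole heart, whereas the protocol describes flash-frozen ventricular apices. The study's main work was on fly hearts, and the mouse libraries were added to it.

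The PDH complex turns pyruvate into acetyl-CoA in the mitochondrial matrix, which commits carbohydrate carbon to oxidation. Its kinases (Pdk) phosphorylate the complex and switch it off, and its phosphatases (Pdp) switch it on again. Citrate synthase joins acetyl-CoA to oxaloacetate, and the cycle then yields NADH, succinyl-CoA and succinate, which complex II of the respiratory chain oxidises to fumarate. The malate-aspartate shuttle carries the reducing equivalents of cytosolic NADH into the matrix with paired malate dehydrogenases and aspartate aminotransferases. The working heart draws most of its ATP from this machinery, and Parkin is a ubiquitin ligase known for marking damaged mitochondria for removal.

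Assigned reads per heart ran from 4415183 in WT heart 2 to 20827699 in WT heart 1, and WT heart 3 was shallow as well, with 4655742. Levels are given as CPM, the reads of a gene over all assigned reads of the heart on a fixed scale, adjusted with TMM factors, fold changes as log2 of KO over WT ± SE, and tests are edgeR quasi-likelihood tests with Benjamini-Hochberg adjustment over 12640 genes and a threshold of 0.05. Mitochondrially encoded transcripts took 32.62% to 58.20% of reads in WT hearts and 10.04% to 15.41% in KO hearts. Fold changes followed base composition across the 12510 genes with a GC value (Spearman rho 0.61 across genes, which are not independent replicates). Each value below is therefore set beside the value of a second fit in which each heart's trends against transcript GC content and length were removed (the corrected fit). A real difference between genotypes that ran along GC content or length would be lost in it too.

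Markers of heart muscle were abundant in every heart, with a summed level of 62664 to 71205 CPM in WT and 73777 to 84232 CPM in KO hearts for 8 cardiomyocyte markers, of which 2 rose and 2 fell. The atrial markers Sln and Myl7 were at 0 to 1.002 CPM in every heart. Myl4 was at 0.812 to 3.82 CPM in WT and 0.998 to 3.36 CPM in KO hearts and did not pass. Nppa, also a stress transcript of the ventricle, rose. The 9 skeletal muscle markers summed to 943 to 1565 CPM in WT and 2261 to 3326.5 CPM in KO hearts. Of the 5 tested, 4 rose, and Tnni2 did not pass (0.40 ± 0.37, adjusted p = 0.370, and -0.15 in the corrected fit). Myh1, Myh8, Tnnt3 and Actn3 were at 0 to 0.812 CPM in every heart, overlapped between the groups and had too few reads to be tested. Acta1 and Ckm, which heart muscle also expresses, made up most of the sum. The skeletal myosins Myh2 (0 to 3.37 CPM in WT and 7.59 to 20.6 CPM in KO hearts) and Myh4 (0.211 to 0.694 and 0.859 to 2.33 CPM) rose as well, at 3.82 ± 0.59 and 1.76 ± 0.43, with every KO heart above every WT heart. The highest WT value of Myh4, in WT heart 2, came from 2 reads, so its separation is within counting error. WT hearts held 0 to 29 reads of Myh2 and 1 to 15 of Myh4. Both were also called higher in the corrected fit, at 3.64 and 1.62. Fibroblast markers had 3 higher and 3 lower of 7, endothelial markers 2 and 2 of 6, and mural markers 2 and 1 of 6. Macrophage markers had 2 and 2 of 6, and neither of the 2 tested erythroid markers passed. Over all tested genes, 26.2% rose and 25.2% fell. The globins Hba-a1, Hba-a2 and Hbb-b1 had 0 reads in every heart, so the counts do not cover them. In the FPKM values the authors deposited, Hba-a1 was at 844 to 3657. In a limma-trend test of median-centred FPKM, 2 erythroid markers were called higher and 0 lower, beside 25.4% and 28.4% of all genes. In the corrected fit the counts were 1 and 2 for fibroblast, 2 and 1 for endothelial, 2 and 0 for mural and 0 and 1 for macrophage markers. They were 0 and 2 for cardiomyocyte and 3 and 0 for skeletal muscle markers, beside 18.6% and 19.7% of all genes. The part of these differences in the results below was not tested. In bulk tissue, fewer cells of a type and less RNA per cell cannot be told apart.

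Of the 30 members tested, 7 rose and 9 fell, where 26.2% of all tested genes rose and 25.2% fell. The members' shares were thus near the background, and their median log2 fold change was -0.07 against -0.01 over all genes. In the corrected fit 11 members were called higher and 8 lower, against 18.6% and 19.7% of all genes, with a median of 0.14. A call in the same direction in both fits was made for 12 members, 5 higher and 7 lower, against 13.2% and 13.6% of all genes. All 4 KO hearts lay above all 5 WT hearts for 6 members and below them for 6, where 22.3% and 19.3% of all genes did. In corrected CPM this held for 8 and 6 members, against 16.3% and 15.8% of all genes. The 5 called higher in both fits were Suclg1, Sdhd, Mdh2, Pcx and Pdk1, and the 7 called lower were Sucla2, Idh3b, Idh3g, Sdhc, Pdk2, Pdk4 and Pdp1. Without KO heart 4, the number of members called lower was 5, and without any other single heart it was 6 to 8. The members' transcript GC content ran from 40.65% for Dld to 58.32% for Idh2. Across the 30 members the log2 fold change had a Spearman correlation of 0.36 with GC content, and of -0.14 in the corrected fit, as a description of genes measured in the same libraries.

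**Figure D1:**
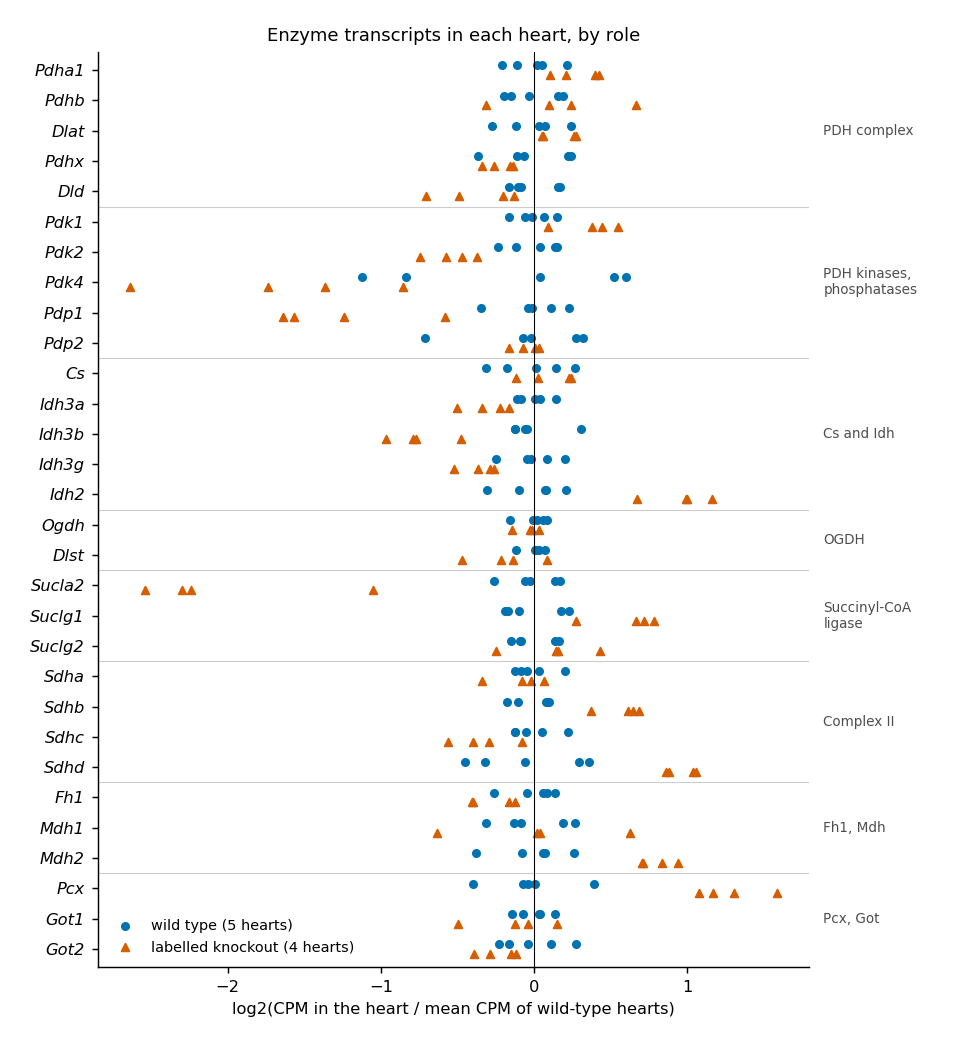
Level of each of the 30 tested enzyme transcripts in every heart, as log2 of the heart's CPM over the mean CPM of the 5 wild-type hearts (x axis), with genes grouped by role (y axis). Circles are wild-type and triangles labelled knockout hearts. The KO hearts lie apart from WT on the left for Sucla2 and Pdp1 and on the right for Pcx, Idh2 and Sdhd.

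**Figure D2:**
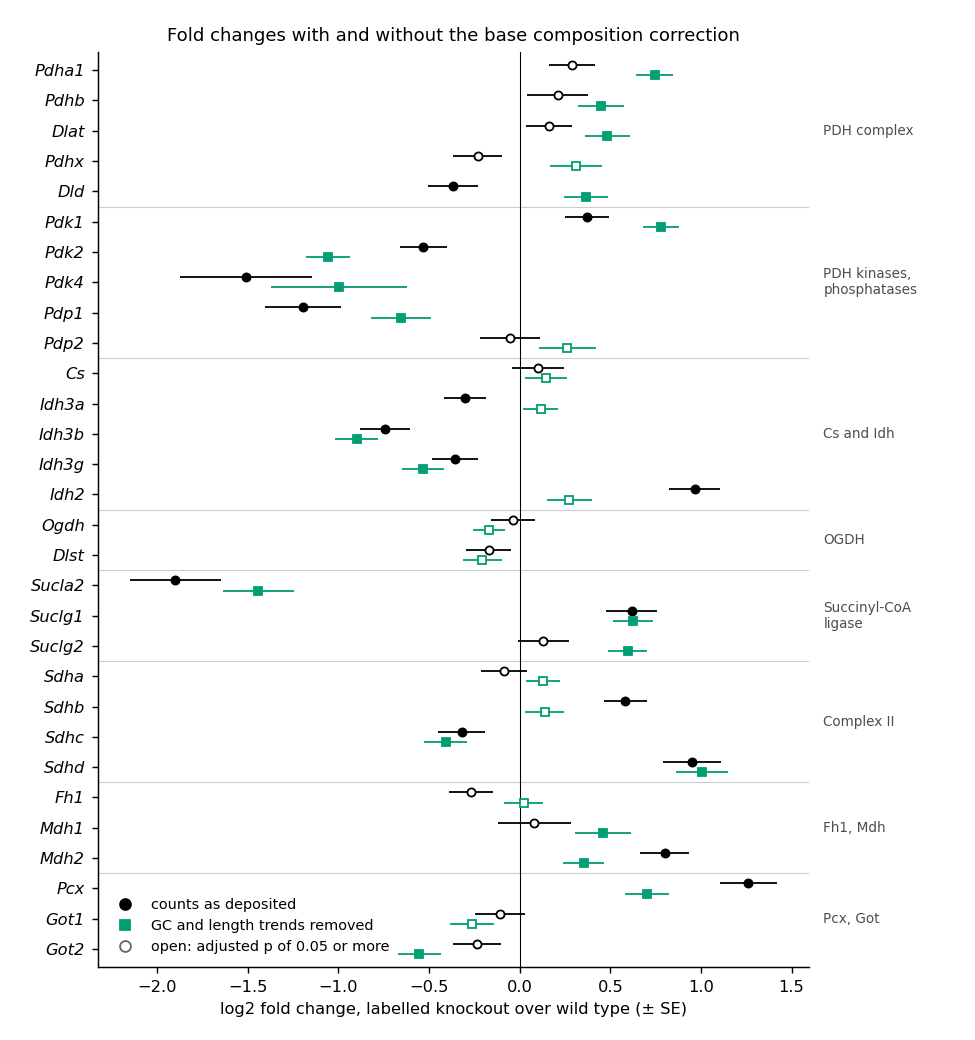
Log2 fold change of the labelled knockout over wild type for each of the 30 transcripts (± SE), from counts as deposited (circles) and with GC and length trends removed (squares). Filled symbols passed an adjusted p of 0.05. Sucla2, at -1.90 and -1.44, was the lowest in both fits, and Dld passed in opposite directions.

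**Figure D3:**
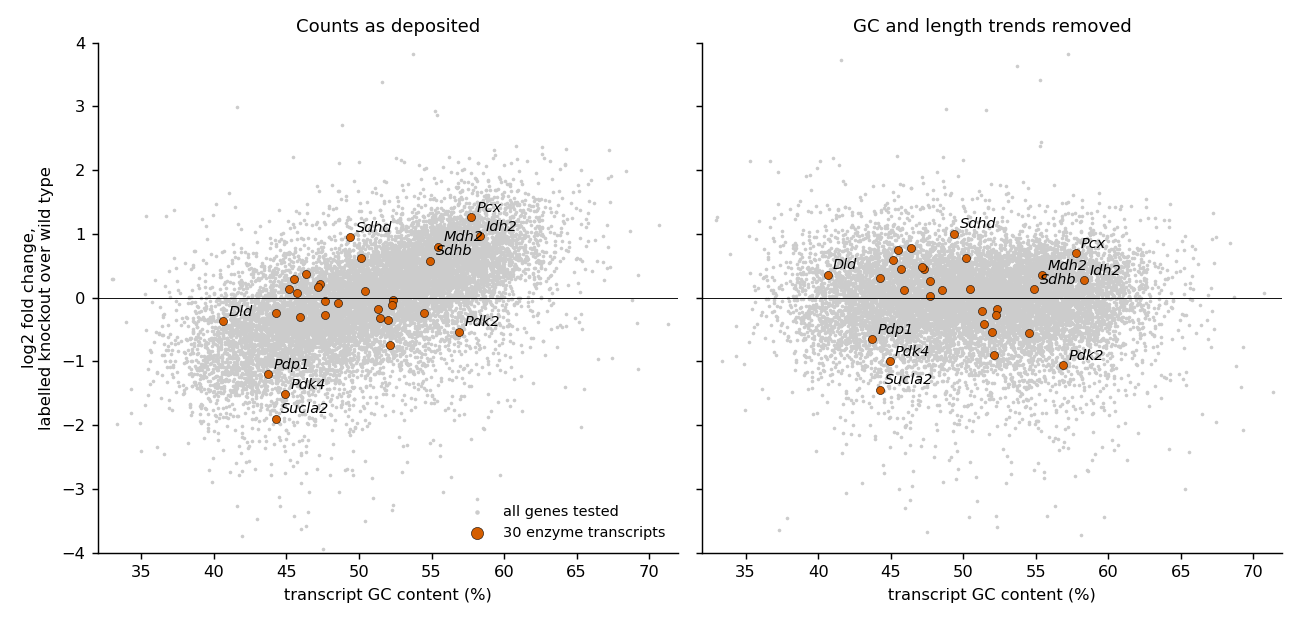
Log2 fold change against transcript GC content for all 12510 tested genes with a GC value (grey) and the 30 enzyme transcripts (orange), before (left) and after (right) removal of GC and length trends. Points outside the axes, 10 genes on the left and 6 on the right, are not drawn. The slope of the grey cloud on the left is flat on the right.

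Of the 5 members of the PDH complex, 0 were called higher and 1, Dld, lower in counts as deposited, beside 26.2% and 25.2% of all genes. In the corrected fit 4 were called higher, beside 18.6% of all genes. No member of the complex was called higher in both fits. Pdha1, the catalytic alpha subunit of pyruvate dehydrogenase and the target of the kinases, stood at 403 ± 45.3 CPM in WT (SD, n = 5) and 493 ± 52.4 CPM in KO hearts (SD, n = 4). Its log2 fold change was 0.29 ± 0.13 (adjusted p = 0.068), and 0.75 ± 0.10 in the corrected fit (adjusted p = 1.11e-04). Exons of Map3k15 on the opposite strand cover 16.2% of Pdha1 exon bases, and the libraries did not keep strand, so reads of the pair cannot be told apart. Without KO heart 4 the uncorrected value was 0.35 and passed (adjusted p = 0.038), as it did with DESeq2 at 0.30 (adjusted p = 0.026).

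Its partner Pdhb, the beta subunit, stood at 0.21 ± 0.17 (adjusted p = 0.308) and at 0.45 in the corrected fit (adjusted p = 0.012). Pdhb has a processed pseudogene, Gm6123, with 97.0% identity over 1079 bases, so its count is uncertain. Dlat, the acetyltransferase core, stood at 0.16 ± 0.13 (adjusted p = 0.297) and at 0.48 in the corrected fit (adjusted p = 0.0067). Pdhx, which tethers the dehydrogenase Dld to the core, stood at -0.23 ± 0.13 (adjusted p = 0.160) and at 0.31 in the corrected fit (adjusted p = 0.103). Without WT heart 2 its uncorrected value was -0.32 and passed (adjusted p = 0.045). Dld, shared by the pyruvate and oxoglutarate dehydrogenase complexes, fell from 111 ± 12.3 to 86.6 ± 15.5 CPM (-0.37 ± 0.14, adjusted p = 0.037). It was called higher in the corrected fit, at 0.36 (adjusted p = 0.027). Dld has the lowest GC content of all members, with 4.16% of tested genes below it, and its CPM overlapped between the groups. It also lost its uncorrected call without WT heart 1, WT heart 4, KO heart 2 or KO heart 4, at -0.34 to -0.27.

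The kinases moved in different directions. Pdk2, the kinase isoform found in most tissues, fell, Pdk4, the isoform known to be induced by fasting and fatty acids, fell from an uneven WT level, and Pdk1 rose. Pdk2 was at 591, 764, 716, 642 and 773 CPM in WT hearts 1 to 5 and at 416, 539, 469 and 503 CPM in KO hearts 1 to 4. All 4 KO hearts were below all 5 WT hearts. The fall was 1.45-fold (-0.53 ± 0.13, adjusted p = 0.0033). In the corrected fit it was larger, at -1.06 ± 0.12 (adjusted p = 3.5e-05). The GC content of Pdk2, 56.9%, is above that of 83.5% of tested genes.

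Pdk4 was at 599, 839, 884, 327 and 268 CPM in WT hearts 1 to 5 and at 175, 322, 93.7 and 227 CPM in KO hearts 1 to 4. The groups overlapped, because KO heart 2 was above WT heart 5, and both shallow WT hearts had the highest values. Its spread was the widest of the 30 tested members in WT, with a coefficient of variation of 48.5%. The log2 fold change was -1.51 ± 0.36 (adjusted p = 0.0031), and -0.998 ± 0.37 in the corrected fit (adjusted p = 0.047). Without WT hearts 2 and 3 it was -0.97 (adjusted p = 0.040), and with the correction as well, an alternative chosen after seeing the data, -0.48 (adjusted p = 0.350).

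Pdk1 was at 59.3, 64.5, 55.1, 61.2 and 68.6 CPM in WT hearts and at 90.1, 83.8, 80.0 and 65.9 CPM in KO hearts. KO heart 4 lay within the WT range and the other KO hearts above it. The rise was 0.37 ± 0.12 (adjusted p = 0.019), and 0.78 ± 0.10 in the corrected fit (adjusted p = 6.6e-05). The uncorrected call was lost without WT heart 3, KO heart 1 or KO heart 2, at 0.31 to 0.35 (adjusted p = 0.051 to 0.052). Pdk3 had 4 to 17 reads in 7 hearts and 0 in WT hearts 2 and 3, where a count of 0 allows up to 1.04 and 0.8885 CPM (3 counts, counting error only). It was not tested.

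Compared per length, with the FPKM values the authors deposited, Pdk2 and Pdk4 made up nearly all kinase transcript. Pdk2 took 58.9%, 56.6%, 53.9%, 72.7% and 78.4% of the summed FPKM of the 4 kinases in WT hearts 1 to 5 and 73.0%, 68.6%, 82.8% and 73.9% in KO hearts 1 to 4. Pdk4 took 18.6% to 44.3% in WT and 11.3% to 26.9% in KO hearts, so that these shares overlapped. The Pdk1 share was 1.73% to 2.90% in WT and 4.04% to 6.60% in KO hearts, without overlap. These shares are scale-free within a heart and were not tested. They carry the same GC trend as the counts, and transcript GC content was 56.9% for Pdk2, 44.92% for Pdk4 and 46.37% for Pdk1.

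**Figure D4:**
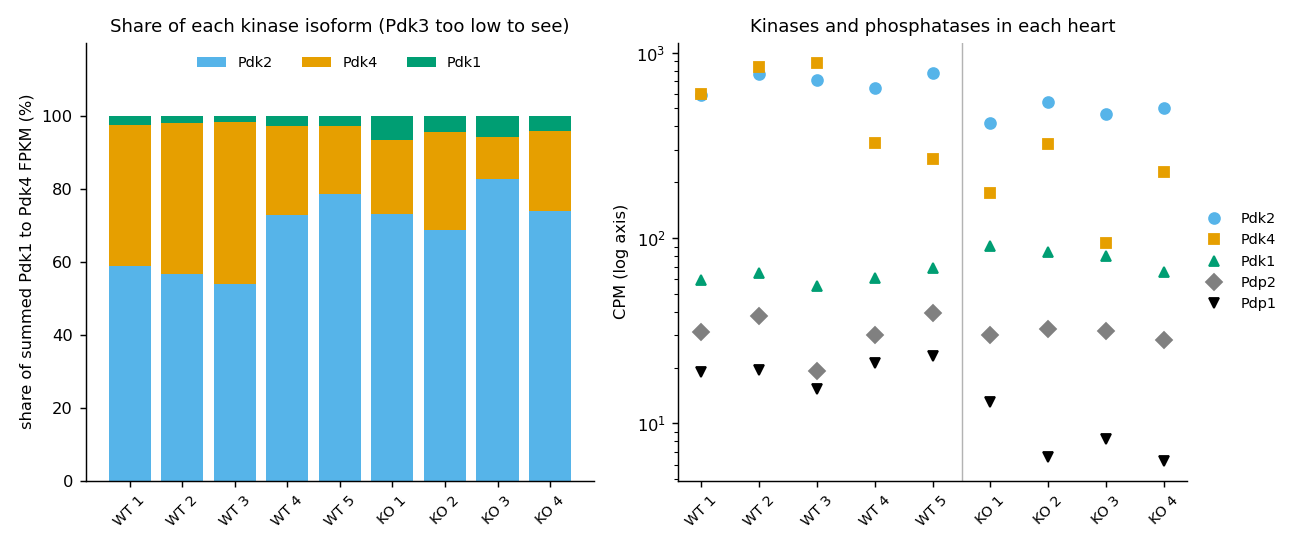
Left, share of each kinase isoform in the summed FPKM of Pdk1 to Pdk4 in each heart (stacked bars, percent). Right, CPM of 3 kinases and 2 phosphatases in each heart on a log axis, with WT hearts left of the line. Pdk4 spans 268 to 884 CPM among WT hearts, and every KO heart has less Pdp1 than every WT heart.

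Of the phosphatases, Pdp1, the calcium-stimulated form of muscle, fell and Pdp2 did not pass. Pdp1 was at 19.0, 19.4, 15.4, 21.1 and 23.0 CPM in WT hearts 1 to 5 and at 13.1, 6.62, 8.29 and 6.30 CPM in KO hearts 1 to 4. No KO heart reached the lowest WT heart, and KO heart 1 was the nearest. The fall was 2.29-fold (-1.20 ± 0.21, adjusted p = 2.8e-04), and -0.65 ± 0.17 in the corrected fit (adjusted p = 0.0064), where the groups overlapped. Pdp2 stood at -0.05 ± 0.17 (adjusted p = 0.802), with 19.3 to 39.3 CPM in WT and 28.1 to 32.2 CPM in KO hearts. The ratio of Pdp1 to Pdp2 in FPKM was 0.423 to 0.647 in WT and 0.170 to 0.362 in KO hearts.

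At the entry of the cycle, citrate synthase did not pass and the isocitrate dehydrogenases diverged. Cs, whose activity is a common measure of mitochondrial content, stood at 929 ± 150 CPM in WT and 995 ± 116 CPM in KO hearts (0.10 ± 0.14, adjusted p = 0.581, and 0.14 in the corrected fit). The NAD-dependent enzyme is built from Idh3a, the catalytic subunit, and from Idh3b and Idh3g. All 3 fell in counts as deposited, with every KO heart below every WT heart. Of all tested genes, 25.2% were called lower and 19.3% had every KO heart below every WT heart. Idh3b was at 446, 422, 421, 570 and 442 CPM in WT hearts 1 to 5 and at 331, 269, 266 and 236 CPM in KO hearts 1 to 4. Its fall of 1.67-fold (-0.74 ± 0.14, adjusted p = 4.8e-04) was larger in the corrected fit (-0.90 ± 0.12, adjusted p = 8.4e-05).

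Idh3g fell from 563 ± 64.5 to 439 ± 35.3 CPM (-0.36 ± 0.13, adjusted p = 0.026), and by 0.53 on the log2 scale in the corrected fit (adjusted p = 0.0025). Without WT heart 2, KO heart 3 or KO heart 4 the uncorrected call was lost, with values of -0.35 to -0.30 (adjusted p = 0.051 to 0.070). Idh3a fell from 333 ± 23.6 to 270 ± 27.3 CPM (-0.30 ± 0.12, adjusted p = 0.042), but stood at 0.11 in the corrected fit (adjusted p = 0.367). Its uncorrected call was lost without any 1 of WT hearts 1, 4 and 5 and KO hearts 2, 3 and 4, at -0.33 to -0.24. Within a heart, the FPKM ratio of Idh3b to Idh3a was 2.02 to 2.85 in WT and 1.58 to 1.86 in KO hearts, while that of Idh3g to Idh3a overlapped, at 2.70 to 4.01 and 3.03 to 3.24.

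Idh2, the NADP-dependent mitochondrial enzyme that supplies NADPH, went the other way. It was at 795, 704, 609, 793 and 870 CPM in WT hearts 1 to 5 and at 1203, 1506, 1684 and 1499 CPM in KO hearts 1 to 4. All KO hearts were above all WT hearts, and the rise was 1.95-fold (0.96 ± 0.14, adjusted p = 7.8e-05). Idh2 has the highest GC content of the members, and in the corrected fit it was not called, at 0.27 ± 0.12 (adjusted p = 0.093).

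The oxoglutarate dehydrogenase complex makes succinyl-CoA and is built from Ogdh, Dlst and the shared Dld. Ogdh and Dlst did not pass in either fit, while Dld, described above, fell in counts as deposited and was called higher in the corrected fit. Ogdh, its first enzyme, was the member with the most reads, at 2533 ± 161 CPM in WT and 2465 ± 126 CPM in KO hearts (-0.04 ± 0.12, adjusted p = 0.806). It varied little between hearts, with coefficients of variation of 6.34% in WT and 5.11% in KO hearts. Dlst, the succinyltransferase, stood at -0.17 ± 0.13 (adjusted p = 0.267). In the corrected fit the values were -0.17 for Ogdh and -0.21 for Dlst (adjusted p = 0.151 and 0.148).

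Succinyl-CoA ligase held the largest fall of the tested members. The enzyme pairs the alpha subunit Suclg1 with 1 of 2 beta subunits, Sucla2, which makes the ATP-forming enzyme, or Suclg2, which makes the GTP-forming one. Sucla2 (chr14:73525319-73596142 on GRCm38, plus strand) was at 207, 238, 280, 243 and 273 CPM in WT hearts 1 to 5 and at 119.7, 52.5, 50.5 and 42.8 CPM in KO hearts 1 to 4. All KO hearts were below all WT hearts, and KO heart 1 was the highest of the KO hearts. The fall was 3.73-fold (-1.90 ± 0.25, adjusted p = 4.0e-05), and -1.44 ± 0.20 in the corrected fit (adjusted p = 1.0e-04). Without KO heart 1 it was -2.35.

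Suclg1 was at 171, 134, 132, 177 and 141 CPM in WT hearts 1 to 5 and at 248, 259, 239 and 182 CPM in KO hearts 1 to 4. KO heart 4 was just above the highest WT heart and the other KO hearts were well above it. The rise was 1.53-fold (0.62 ± 0.14, adjusted p = 0.0019), with nearly the same value in the corrected fit (0.63 ± 0.11, adjusted p = 6.4e-04). Suclg2 stood at 53.9 ± 5.46 CPM in WT and 59.3 ± 11.1 CPM in KO hearts (0.13 ± 0.14, adjusted p = 0.446), and was called higher in the corrected fit, at 0.60 (adjusted p = 8.0e-04). A processed pseudogene, Gm15163, shares 98.9% identity with Suclg2 over 1302 bases, so its count is uncertain. Per length, Sucla2 had 3.80 to 6.02 times the FPKM of Suclg2 in WT hearts and 0.924 to 1.80 times in KO hearts. The ratio of Sucla2 to the alpha subunit was 0.756 to 1.32 in WT and 0.126 to 0.301 in KO hearts.

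Complex II is both an enzyme of the cycle and an entry point of the respiratory chain, and its 4 subunits did not move together. Sdha, the flavoprotein that oxidises succinate, stood at 863 ± 80.5 CPM in WT and 812 ± 94.5 CPM in KO hearts (-0.09 ± 0.13, adjusted p = 0.579, and 0.13 in the corrected fit with adjusted p = 0.307). Sdhb, the iron-sulfur subunit, was at 484, 422, 401, 480 and 485 CPM in WT hearts 1 to 5 and at 696, 712, 731 and 587 CPM in KO hearts 1 to 4. The groups did not overlap, and the rise was 0.58 ± 0.12 (adjusted p = 0.0011), while the corrected fit gave 0.14 without a call (adjusted p = 0.337).

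Of the membrane anchors, Sdhd rose and Sdhc fell. Sdhd (chr9:50596357-50603812, minus strand) was at 141, 88.1, 80.3, 135 and 105 CPM in WT hearts 1 to 5 and at 228, 199, 225 and 202 CPM in KO hearts 1 to 4. Every KO heart was above every WT heart, and the rise of 1.93-fold (0.95 ± 0.16, adjusted p = 2.35e-04) was as large in the corrected fit (1.01 ± 0.14, adjusted p = 1.39e-04). Sdhc was at 304 to 387 CPM in WT and 225 to 314 CPM in KO hearts, which overlapped. Its fall was -0.32 ± 0.13, just inside the threshold (adjusted p = 0.04995), and -0.41 ± 0.12 in the corrected fit (adjusted p = 0.014). The uncorrected call was lost with RLE factors (adjusted p = 0.051) and without any 1 of WT hearts 2, 3 and 5 and KO hearts 1, 3 and 4, at -0.35 to -0.25.

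Within a heart, the FPKM ratio of Sdhd to Sdha was 0.426, 0.246, 0.250, 0.333 and 0.309 in WT hearts 1 to 5 and 0.622, 0.599, 0.652 and 0.731 in KO hearts 1 to 4. The ratio of Sdhb to Sdha was 1.46 to 1.82 in WT and 2.36 to 2.66 in KO hearts, and that of Sdhc to Sdha overlapped at 0.834 to 1.20 and 0.761 to 1.05. These ratios do not depend on how hearts are scaled to each other, and they carry the same GC trend as the counts. The 4 factors that help assemble complex II were read after their values were seen. Sdhaf1, which serves the iron-sulfur subunit, fell from 26.4 ± 3.50 to 10.7 ± 2.997 CPM (-1.29 ± 0.19, adjusted p = 9.1e-05, and -1.28 in the corrected fit). Sdhaf2, needed to attach the flavin to Sdha, fell by 0.55 on the log2 scale and stood at -0.20 in the corrected fit (adjusted p = 0.156). Sdhaf3, counted under the older symbol Acn9 at 0.989 ± 0.511 CPM in WT, rose (1.30 ± 0.33), with only 2 to 7 reads in WT hearts 2 to 5. Sdhaf4, counted as 1110058L19Rik, rose as well (0.45 ± 0.18), with overlapping groups. Both were also called higher in the corrected fit (2.03 and 0.70).

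**Figure D5:**
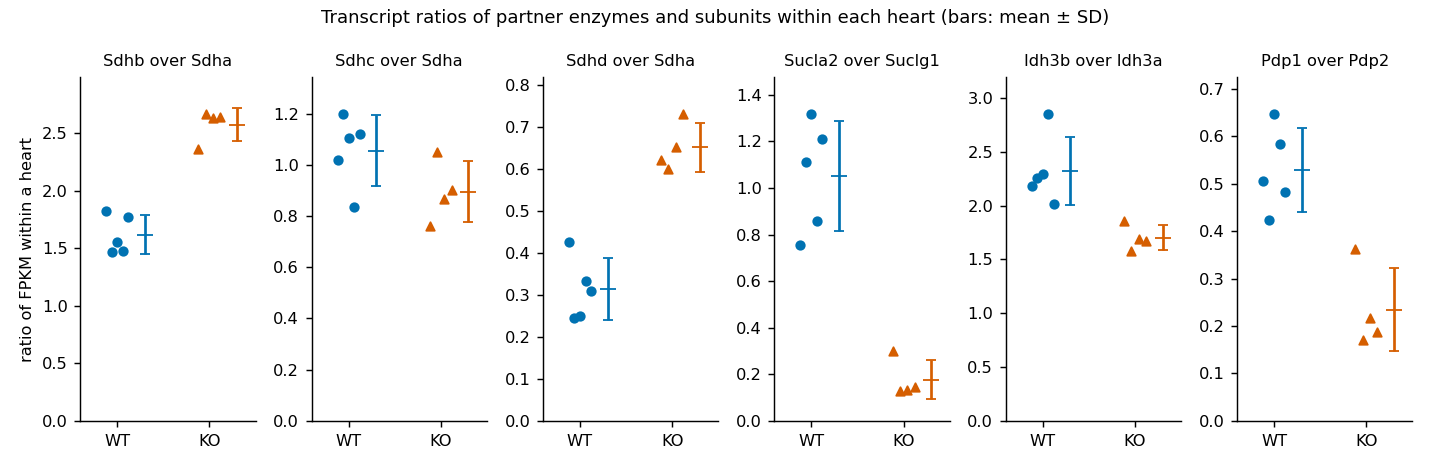
Ratio of FPKM between partner transcripts within each heart (y axis), for WT (circles) and KO hearts (triangles), with mean ± SD beside the points. KO hearts lie above WT for Sdhb and Sdhd over Sdha and below WT for Sucla2 over Suclg1, Idh3b over Idh3a and Pdp1 over Pdp2, and the groups overlap for Sdhc over Sdha.

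The 250 bases before the transcription start of the complex II subunits with a RefSeq entry and of Sucla2 are shown because complex II held anchors called in opposite directions and Sucla2 fell most among the tested members. They come from RefSeq on GRCm38.p6, which had 36 promoter entries for 28 of the 31 members, and are written 5′ to 3′ on the gene's strand. Capitals mark matches, on either strand, to the palindromic element of NRF1, a regulator of mitochondrial genes, or to CCGGAAG, the core bound by ETS factors such as GABP. The motifs do not overlap each other in these windows. The entry for Sucla2 starts inside the GENCODE gene given above. The Sdha and Sdhb windows also reach into their GENCODE genes, whose starts lie at 74350280 and 140961203. The Sdha match nearest the RefSeq start lies in that overlap. Bases after the start matched near a transcript start for 25 of the 36 entries.
Sdha, chr13:74350241-74350490, minus strand: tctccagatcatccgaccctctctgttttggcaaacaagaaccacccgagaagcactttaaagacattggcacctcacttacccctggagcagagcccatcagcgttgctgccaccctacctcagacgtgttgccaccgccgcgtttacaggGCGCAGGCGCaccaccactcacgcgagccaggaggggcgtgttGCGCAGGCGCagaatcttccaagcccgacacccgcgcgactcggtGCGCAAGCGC
Sdhb, chr4:140961021-140961270, plus strand: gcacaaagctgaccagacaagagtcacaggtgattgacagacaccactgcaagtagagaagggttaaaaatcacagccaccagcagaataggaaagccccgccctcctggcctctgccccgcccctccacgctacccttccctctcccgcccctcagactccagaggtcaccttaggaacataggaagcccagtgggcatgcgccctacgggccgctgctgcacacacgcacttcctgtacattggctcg
Sdhd, chr9:50603850-50604099, minus strand: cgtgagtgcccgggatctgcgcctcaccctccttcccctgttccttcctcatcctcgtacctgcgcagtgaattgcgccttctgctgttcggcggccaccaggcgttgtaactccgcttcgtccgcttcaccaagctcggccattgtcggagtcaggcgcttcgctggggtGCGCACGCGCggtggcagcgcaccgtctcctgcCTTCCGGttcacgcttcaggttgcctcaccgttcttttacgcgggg
Sucla2, chr14:73552536-73552785, plus strand: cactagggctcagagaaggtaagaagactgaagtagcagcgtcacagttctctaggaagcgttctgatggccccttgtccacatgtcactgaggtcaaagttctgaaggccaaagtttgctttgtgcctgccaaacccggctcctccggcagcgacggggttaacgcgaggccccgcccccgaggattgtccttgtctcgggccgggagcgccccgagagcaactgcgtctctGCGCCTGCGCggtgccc
The NRF1 element was found in 3 of the 36 member windows (8.33%), those of Sdha, Sdhd and Sucla2, and in 3.74% of all 32851 promoter windows of the same length. Sdha held 3 matches. Sdhd, which rose, and Sucla2, which fell, each held 1. The ETS letters were found in 2 member windows (5.56%), Sdhd and Idh3g, and in 6.91% of all windows. The letters CAAGGTCA, the element of oestrogen-related receptors, were in 0 member windows and 1.33% of all windows. A match is a description of letters and not a bound site.

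After complex II, fumarase did not pass and the malate dehydrogenases differed. Fh1, the fumarase of matrix and cytosol, stood at 219 ± 22.6 CPM in WT and 182 ± 18.6 CPM in KO hearts (-0.27 ± 0.12, adjusted p = 0.081, and 0.02 in the corrected fit). Without WT heart 1 it passed, at -0.33 (adjusted p = 0.033). Mdh2, the matrix enzyme of cycle and shuttle, was at 773, 611, 495, 670 and 678 CPM in WT hearts 1 to 5 and at 1049, 1151, 1239 and 1056 CPM in KO hearts 1 to 4. The groups did not overlap. The rise was 1.74-fold (0.80 ± 0.14, adjusted p = 2.7e-04), and 0.35 ± 0.11 in the corrected fit (adjusted p = 0.024).

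Mdh1, the cytosolic partner in the shuttle, was at 516 to 773 CPM in WT hearts and at 992, 651, 660 and 413 CPM in KO hearts 1 to 4. KO heart 1 was above and KO heart 4 below every WT heart. The log2 fold change was 0.08 ± 0.20 (adjusted p = 0.759), at -0.16 without KO heart 1, and Mdh1 was called higher in the corrected fit at 0.46 (adjusted p = 0.029). The aminotransferases of the shuttle did not pass in counts as deposited. Got1, in the cytosol, stood at -0.11 ± 0.14 (adjusted p = 0.518, and -0.26 in the corrected fit with adjusted p = 0.095). Got2, in the matrix, stood at -0.24 ± 0.13 (adjusted p = 0.154) and was called lower in the corrected fit (-0.55, adjusted p = 0.0025). Its pseudogene Got2-ps1 shares 99.1% identity over 1293 bases, and the Gm45760 transcript on the opposite strand covers 9.0% of its exon bases, so the Got2 count is uncertain.

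Pcx encodes pyruvate carboxylase, which makes oxaloacetate from pyruvate and so refills the cycle. It was at 22.5, 16.3, 13.0, 17.2 and 16.7 CPM in WT hearts 1 to 5, with 47 and 44 reads in WT hearts 2 and 3, and at 36.2, 38.5, 42.3 and 51.4 CPM in KO hearts 1 to 4. All KO hearts were above all WT hearts. The rise of 2.40-fold (1.26 ± 0.16, adjusted p = 2.7e-05) was the largest among the members in counts as deposited. It was 0.70 ± 0.12 in the corrected fit (adjusted p = 6.1e-04), where Sdhd (1.01), Pdk1 (0.78) and Pdha1 (0.75) stood higher. Adipocytes are rich in pyruvate carboxylase. The 10 adipocyte markers summed to 273 to 367 CPM in WT and 206 to 347 CPM in KO hearts, mostly from Fabp4, which endothelium also expresses. Of the 10, 2 had enough reads to be tested, Fabp4 and Cidea, and neither passed in counts as deposited. In the corrected fit Cidea was called lower (-0.38, adjusted p = 0.038) and Fabp4 stood at 0.38 (adjusted p = 0.054). Adipoq, Plin1, Lep and Ucp1 were at 0 to 0.358 CPM in every heart. Pck1 was at 0.421 to 1.18 CPM in WT and 0.120 to 0.429 CPM in KO hearts, and Cidec at 0 to 1.39 and 0 to 0.859 CPM. Cfd was at 0 to 0.296 CPM in WT hearts and at 0.998, 0, 0.556 and 3.58 CPM in KO hearts 1 to 4. Retn had 0 reads in every WT heart and 1 to 5 reads in each KO heart. The part of these markers in the Pcx result was not tested.

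A wider list of 34 pathway genes outside the members had 14 higher and 6 lower in counts as deposited, where 26.2% and 25.2% of all genes were. In the corrected fit it had 13 and 6, beside 18.6% and 19.7% of all genes, and in both fits 10 and 4, beside 13.2% and 13.6%. The mitochondrial pyruvate carrier pairs Mpc1 with Mpc2. Mpc1 rose from 46.9 ± 9.18 to 85.4 ± 35.0 CPM (0.88 ± 0.23, adjusted p = 0.0049, and 1.28 in the corrected fit), whereas Mpc2 stood at 0.24 ± 0.12 (adjusted p = 0.102) and at -0.08 in the corrected fit.

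Of the shuttle's carriers, the oxoglutarate-malate carrier Slc25a11 stood at 0.08 ± 0.14 (adjusted p = 0.631) and the aspartate-glutamate carrier of muscle, Slc25a12, at 0.11 ± 0.12 (adjusted p = 0.481). The second aspartate-glutamate carrier, Slc25a13, rose (0.34 ± 0.12, adjusted p = 0.023). In the corrected fit Slc25a12 and Slc25a13 were called higher, at 0.51 and 0.70, and Slc25a11 stood at -0.25 (adjusted p = 0.123). Among the called genes with the smallest p in this list were Sdhaf1, described above, and Sirt3, the mitochondrial deacetylase (0.91 ± 0.14). Others were Ogdhl, a paralogue of Ogdh (1.03 ± 0.18), the alanine aminotransferase Gpt (1.06 ± 0.19) and the dicarboxylate carrier Slc25a10 (1.26 ± 0.24). The corrected values of Sirt3, Ogdhl, Gpt and Slc25a10 were 0.52, 0.61, 0.48 and 0.54, and Slc25a10 did not pass there (adjusted p = 0.054).

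Among 10 transcription factors and coactivators known to act on Pdk4 or its relatives, 3 rose and 3 fell, near the 26.2% and 25.2% of all genes. In the corrected fit 2 were called higher and 4 lower, beside 18.6% and 19.7% of all genes. Hif1a, the oxygen-regulated factor known to induce Pdk1, fell from 51.2 ± 6.99 to 14.1 ± 4.42 CPM (-1.85 ± 0.19), while Pdk1 rose. Foxo1 (-0.65 ± 0.13) and Ppargc1a (-1.30 ± 0.20) fell, as Pdk4 did. Esrra (1.20 ± 0.20), Rxra (0.80 ± 0.14) and Foxo3 (0.52 ± 0.14) rose. Hif1a, Foxo1 and Ppargc1a remained lower in the corrected fit (-1.15, -0.39 and -0.82) and Esrra higher (0.45), while Rxra and Foxo3 did not pass there (0.23 and -0.23). Nr3c1 and Ppard did not pass in counts as deposited (-0.06 and 0.03). In the corrected fit Nr3c1 was called higher (0.61, adjusted p = 6.9e-04) and Ppard lower (-0.68, adjusted p = 0.0053). Ppara stood at 0.11 ± 0.13 (adjusted p = 0.495) and at 0.06 in the corrected fit. The part of these factors in the kinase results was not tested.

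Ordered by mean FPKM, which is per length, the most abundant members in WT hearts were Mdh2 (501 ± 177 FPKM), Sdhb (434 ± 124), Got2 (424 ± 118), Idh2 (417 ± 123) and Idh3g (403 ± 56.2). Among these 5, the means of neighbours lay within 1 SD of each other. The SD of these uncentred values also holds differences in scale between hearts. In KO hearts Mdh2 (1265 ± 114), Idh2 (1189 ± 135) and Sdhb (954 ± 124) came first. The lowest were Pdk3 (0.198 ± 0.195), Pcx (3.67 ± 1.48) and Pdp1 (4.08 ± 1.10) in WT hearts. Sdhd moved from rank 22 in WT to 15 in KO hearts, and Pdk4 from 15 to 21. FPKM values were not centred between hearts, and their median log2 difference over all genes was 0.44, so the levels are compared between genes and not between genotypes. In a limma-trend test of log2(FPKM + 1), 13 members were called higher and 1 lower, beside 47.2% and 6.09% of all genes. Without any 1 of WT hearts 2, 3 and 5 and KO hearts 1, 2 and 3 the number higher was 7 or 8, and without WT heart 3, WT heart 5, KO heart 1 or KO heart 2 the number lower was 2. With each heart centred on its median, the counts were 7 and 5, beside 25.4% and 28.4% of all genes. The 7 were Pcx, Idh2, Mdh2, Sdhb, Sdhd, Suclg1 and Pdk1, and the 5 were Sucla2, Pdk4, Pdp1, Pdk2 and Idh3b.

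The hearts of 1 genotype also differed in the module as a whole. Summed over all 31 members, the level was 12568 to 14349.5 CPM in WT and 12402 to 14567 CPM in KO hearts. As a share of assigned reads it was 0.881% to 1.484% in WT and 1.489% to 1.958% in KO hearts, and as a share of reads outside the mitochondrial genome 2.07% to 2.31% and 1.76% to 2.18%. KO heart 1 held the highest KO value for 17 of 30 tested members and KO heart 4 the lowest for 21. Their mitochondrial read shares were 10.04% and 15.41%, the lowest and the highest among KO hearts, and the part of that difference in the members' levels was not tested. WT heart 3, a shallow library, held the lowest WT value for 18 members. The widest spread among KO hearts was that of Sucla2, with a coefficient of variation of 53.9%, followed by Pdk4 (46.9%), Pdp1 (36.4%) and Mdh1 (35.0%).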

How the data were processed

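Per the labels' protocols, polyadenylated RNA of each heart was sequenced from single-end libraries without strand information. The submitters' processing notes name Bowtie2, TopHat2 2.0.10, HTSeq, Cufflinks 2.1, DESeq, edgeR and the mm10 build, without giving the role or order of each. The authors deposited read counts per gene for 9 hearts, and a table of FPKM values (fragments scaled to transcript length and library size) for the same hearts. The counts were tested with edgeR 4.0.16 in R 4.3.3 (TMM factors, expression filter, quasi-likelihood test, Benjamini-Hochberg adjusted p below 0.05), with no replicate term. The corrected fit added offsets per heart from lowess trends (span 0.3) against GC content and transcript length, for 12510 genes with a value. FPKM was tested as log2(FPKM + 1) with limma 3.58.1 (limma-trend) where the mean FPKM reached 0.5, and folds on that scale understate changes of low genes. Scripts were tested on simulated data. Alternatives were RLE factors, no filter, DESeq2 1.42.0, a replicate block, the offsets, hearts left out, and rows left out. Promoters are from RefSeq, GRCm38.p6, and gene positions from GENCODE on GRCm38.

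The members and lists were chosen with earlier results of these data known. All members are named, with fixed carriers and wider pathway genes from the 6 called ones of smallest p. Each heart is 1 library, so p-values measure the spread between these hearts. Depth ran from 4415183 to 20827699 reads, and floors cover counting error only. The transcript of the targeted gene and some genes of the wider list are not reported here.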

Additional observations from a re-analysis of the deposited data

Results flagged for a closer look

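Of 62 tests for a heart far from the others of its group, 2 stood out, and chance flags about 1 group in 20. Idh3b in WT heart 4 stood at 569.7 CPM, above the other WT hearts at 421 to 446 CPM. Sucla2 in KO heart 1 stood at 119.7 CPM, above the other KO hearts at 42.8 to 52.5 CPM.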

How the results depend on the processing

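With the replicate number as a block, 5 members were called lower and 6 higher. The labels name no link between same-numbered hearts of the 2 groups, and their deviations from the group means correlated at -0.259 to 0.0408. These correlations cannot show whether such hearts shared a batch. With the block and the offsets, 1590 genes were called higher and 1865 lower, and with the offsets and without the 2 shallowest WT hearts, chosen after seeing the data, 2039 and 2082. The offsets called 11 members higher, and no expression filter 5 lower. In FPKM, 7 members were higher and 5 lower after centring, 8 and 2 with the block, and 7 and 2 without the 2 shallowest WT hearts. Leaving out each heart in turn gave 6 to 8 members higher and 5 to 8 lower, 7 to 16 higher and 1 to 2 lower in FPKM, and 2841 to 3399 genes higher and 2704 to 3353 lower. Signs turned as follows, and the cause was not tested. With the offsets, the block with offsets, and the offsets without the 2 shallowest WT hearts, in that order, Idh3a stood at 0.11, 0.16 and 0.052, Dld at 0.36, 0.35 and 0.26, Sdha at 0.13, 0.12 and 0.10, Fh1 at 0.022, 0.061 and 0.035, Pdhx at 0.31, 0.31 and 0.17 and Pdp2 at 0.26, 0.37 and 0.19. In uncentred FPKM, values were 0.28 for Idh3a, 0.24 for Idh3g, 0.55 for Ogdh, 0.40 for Dlst, 0.21 for Dld, 0.50 for Sdha, 0.26 for Sdhc, 0.32 for Fh1, 0.46 for Got1, 0.36 for Got2, 0.37 for Pdhx, 0.058 for Pdk2 and 0.51 for Pdp2. Without the 2 shallowest WT hearts Cs stood at -0.0499 and Mdh1 at -0.041. Mdh1 was -0.16 without KO heart 1, and Pdp2 0.065 with the block. Over single hearts left out, Got1 ran from -0.21 to 0.0036, the latter without KO heart 4, and Pdp2 from -0.19 to 0.025, the latter without WT heart 5. Depth limits Pdk3, Pdp1 and Pcx most in WT hearts 2 and 3.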
